A study of Homo sapiens with 18 samples.

Results

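The 37 genes of the human mitochondrial genome were examined in RNA-seq libraries from 2 bladder cancer cell lines after knockdown of ACAT1, a mitochondrial acetyl-CoA acetyltransferase. They were all rows of the raw count table whose name begins with MT-, 37 of 39496 genes, and comprised 13 mRNA genes, 2 rRNA genes and 22 tRNA genes. UM-UC-3 and T24 are established human lines of bladder transitional cell cancer. Each was transfected with the negative control siNC, genotype WT in the labels, or with siACAT1-1 or siACAT1-2, genotype ACAT1 knockdown. Each of the 6 groups had 3 libraries, which the labels call biological replicates 1 to 3. All were transfected with Lipofectamine 3000, so the knockdown was by siRNA in otherwise unedited cells. UM-UC-3 cells were kept in MEM and T24 cells in RPMI-1640, and the time after transfection and the siRNA dose are not given in the sources used here.

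The mitochondrial genome encodes subunits of the respiratory chain and the RNAs needed to translate them inside the organelle. Both of its strands are transcribed as long precursors, and tRNAs lying between the other genes mark where the precursors are cut into rRNAs and mRNAs. Most of the mRNAs then receive short poly(A) tails, while the mature tRNAs end in CCA. Libraries made with an mRNA kit therefore do not sample the 3 classes alike, and a count on a tRNA gene can come from an uncut precursor as well as from a tRNA.

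The genes lie almost end to end on the 16569 bases of chromosome M (GRCh38), and the start and end given in the count table equalled those of GENCODE release 44 for 37 of 37. MT-ND6 and 8 tRNA genes (MT-TQ, MT-TA, MT-TN, MT-TC, MT-TY, MT-TS1, MT-TE and MT-TP) are on the minus strand of the reference and the other 28 on the plus strand. The following reference sequences (hg38, plus strand) show how close the neighbours are, since a read at a junction can fall on more than one gene. Capitals mark MT-TL1, the tRNA for leucine between the end of MT-RNR2 and the start of MT-ND1, in chrM:3200-3336; the 31 bases between MT-TN and MT-TC, which form the origin of light-strand replication, in chrM:5657-5826; MT-TS2, a tRNA for serine with no base between it and MT-TH or MT-TL2, in chrM:12138-12336; and the 46 bases that MT-ATP8 shares with MT-ATP6 in chrM:8366-8572.
MT-RNR2 end, MT-TL1, MT-ND1 start: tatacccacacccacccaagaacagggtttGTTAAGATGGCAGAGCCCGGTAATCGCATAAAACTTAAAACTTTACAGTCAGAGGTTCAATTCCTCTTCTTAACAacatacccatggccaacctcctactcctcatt
MT-TN to MT-TC: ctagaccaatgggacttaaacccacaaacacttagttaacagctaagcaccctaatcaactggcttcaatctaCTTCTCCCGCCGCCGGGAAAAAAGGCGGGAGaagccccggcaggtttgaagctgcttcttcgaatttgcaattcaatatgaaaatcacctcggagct
MT-TH, MT-TS2, MT-TL2: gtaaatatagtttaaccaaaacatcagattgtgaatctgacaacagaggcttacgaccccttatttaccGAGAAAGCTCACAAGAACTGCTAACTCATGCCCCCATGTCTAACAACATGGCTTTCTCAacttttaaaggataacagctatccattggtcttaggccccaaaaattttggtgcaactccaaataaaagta
MT-ATP8: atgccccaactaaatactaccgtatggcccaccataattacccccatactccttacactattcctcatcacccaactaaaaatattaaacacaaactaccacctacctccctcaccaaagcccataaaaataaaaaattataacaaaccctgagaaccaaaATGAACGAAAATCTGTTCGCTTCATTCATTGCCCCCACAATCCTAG

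The libraries held 25163490 to 34417230 counts on genes (median 28613163), and all 37 mitochondrial genes passed the filter on low counts. ACAT1 was reduced in every knockdown group, from 46.0 ± 1.68 RPKM (read counts scaled to gene length and library size, mean ± SD, n = 3) in UM-UC-3 siNC to 3.05 ± 0.703 with siACAT1-1 and 2.16 ± 0.544 with siACAT1-2, and from 16.2 ± 1.40 in T24 siNC to 1.29 ± 0.149 and 0.792 ± 0.122. Of 15 urothelial and epithelial markers, 3 were at or over 1 RPKM in all UM-UC-3 libraries and 5 in all T24 libraries, while CDH1, KRT5 and the uroplakins UPK1A, UPK1B, UPK2 and UPK3A were under 1 in all 18. Of the 4 leukocyte, 3 endothelial and 5 fibroblast markers only CD68 reached 1 RPKM in all libraries. The libraries of UM-UC-3 replicate 3 and of T24 replicate 2 stood apart from the others of their line in mitochondrial counts, and results are given with and without them where that changed a call. They were singled out by those counts, so calls made or kept without them are no support. For every fit below that leaves out libraries, the share of all genes called is not given, so its count of members has no background.

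The counts may not separate all neighbouring mitochondrial genes. The library kit was stranded, but 148 nuclear genes that lie within an exon of a gene on the opposite strand had a median of 0.579 times the host's counts per base, and 115 of the 148 were over 0.1. For the 57 nested on the same strand the median was 0.300, and 35 were over 0.1. Expression of the nested genes themselves was not separated from reads of the host. Whether counting used the strand is not given in the sources used here, so the values of MT-ND6 and the 8 minus-strand tRNAs may include RNA of the plus strand. The adjoining MT-TH and MT-TS2 had nearly equal counts, at a ratio of 0.922 to 1.06 across the 18 libraries, whereas MT-TL1 averaged 337 RPKM between MT-RNR2 at 3168 and MT-ND1 at 2547. MT-TC and MT-TY, which share a base, also kept a nearly constant ratio of counts across the libraries. The numbers of called genes below take each gene separately and are set beside the share of all genes called. Neighbouring genes are not independent measurements, so that comparison is descriptive only.

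Nuclear copies of mitochondrial sequence took few of the counts. The 182 nuclear copies named in the table held 0.096% to 0.199% of all counts per library, and MTATP6P1, a copy of MT-ATP6 on chromosome 1, held 75.3% of theirs. Aligned to the nuclear genome, the best long match covered bases 3911 to 9755 of chromosome M at 98.5% identity, at chromosome 1, bases 629081 to 634924. Stretches of 100 bases identical to a nuclear sequence made up 27.9% of those in MT-CO1, 26.1% in MT-ND2, 21.2% in MT-RNR1, 11.9% in MT-ATP6, 10.97% in MT-ND1, 4.67% in MT-CO3 and 2.39% in MT-CO2, and 0% in MT-RNR2 and the other 7 mRNA genes. The tRNA genes are shorter than 100 bases and could not be measured this way. MTATP6P1 counts were 10.6% to 12.4% of MT-ATP6 counts in UM-UC-3 libraries and 19.7% to 24.6% in T24 libraries, and how reads were divided between gene and copy is not known.

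Per unit of length, the mRNAs of the ATP synthase subunits were the highest. MT-ATP6 averaged 10332 RPKM over the 18 libraries (range 5337 to 14334), followed by MT-ATP8 at 8616 (5065 to 12786), with which it shares a transcript, and MT-ND6, a complex I subunit, at 6507 (3229 to 8708). In UM-UC-3, MT-ATP6 was at 14334, 13879 and 10570 RPKM with siNC, 12177, 14063 and 8615 with siACAT1-1 and 13525, 13978 and 8511 with siACAT1-2, and in T24 at 8746, 5337 and 9576 RPKM with siNC, 9831, 6418 and 10466 with siACAT1-1 and 9438, 6357 and 10149 with siACAT1-2. MT-ND6 was at 8610, 7138 and 5918 RPKM with siNC, 7578, 8708 and 5636 with siACAT1-1 and 8453, 8662 and 5049 with siACAT1-2 in UM-UC-3, and at 6689, 3229 and 5937 RPKM with siNC, 7035, 3576 and 7302 with siACAT1-1 and 7155, 3475 and 6980 with siACAT1-2 in T24. Replicate 2 was the lowest of each T24 group for both genes and replicate 3 of each UM-UC-3 group, and the ranges of MT-ATP6, MT-ATP8 and MT-ND6 overlapped. MT-CO3, a subunit of cytochrome c oxidase (complex IV), averaged 5933 RPKM, and MT-CO2, another subunit of the same complex, was the lowest mRNA at 1682 (1001 to 2316). MT-CO2 was at 2316, 2193 and 1873 RPKM with siNC, 2042, 1950 and 1275 with siACAT1-1 and 2178, 2105 and 1343 with siACAT1-2 in UM-UC-3, and at 1319, 1001 and 1774 RPKM with siNC, 1341, 1116 and 1860 with siACAT1-1 and 1599, 1077 and 1918 with siACAT1-2 in T24. Its range overlapped that of MT-ND3 (1135 to 2394), its neighbour in this order. The levels of the complex I mRNAs MT-ND4L, MT-ND4, MT-ND5, MT-ND1 and MT-ND2, of MT-CO1 and of MT-CYB, the complex III subunit, lay between those of MT-CO3 and MT-ND3.

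The 2 rRNAs were far apart. MT-RNR2, the large rRNA of the mitochondrial ribosome, averaged 3168 RPKM (1454 to 5165), and MT-RNR1, the small rRNA, 125 (101 to 163), with no overlap between the ranges. Among the tRNA genes MT-TC, for cysteine, had the highest mean count, 3713 (2069 to 5341), and MT-TG, for glycine, the next, 3657 (1675 to 6745). MT-TC was at 1674, 1955 and 1874 RPKM with siNC, 2352, 2553 and 2581 with siACAT1-1 and 2243, 2782 and 2837 with siACAT1-2 in UM-UC-3, and at 1071, 1549 and 1118 RPKM with siNC, 1924, 2035 and 1834 with siACAT1-1 and 1211, 1614 and 1458 with siACAT1-2 in T24. MT-TG was at 1802, 1654 and 1374 RPKM with siNC, 1722, 1842 and 1302 with siACAT1-1 and 1765, 1461 and 1265 with siACAT1-2 in UM-UC-3, and at 2882, 1107 and 2874 RPKM with siNC, 1978, 909 and 1956 with siACAT1-1 and 3273, 875 and 2784 with siACAT1-2 in T24, where replicate 2 was below the lowest of the other numbers by more than the whole spread of MT-TG in UM-UC-3. MT-TF, for phenylalanine, was the lowest member in RPKM at 59.4 (35.2 to 94.3). MT-TQ, for glutamine, varied most between libraries, with a coefficient of variation of 75.7%, against 14.4% for MT-ND1 and 18.1% for MT-RNR1.

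**Figure D1:**
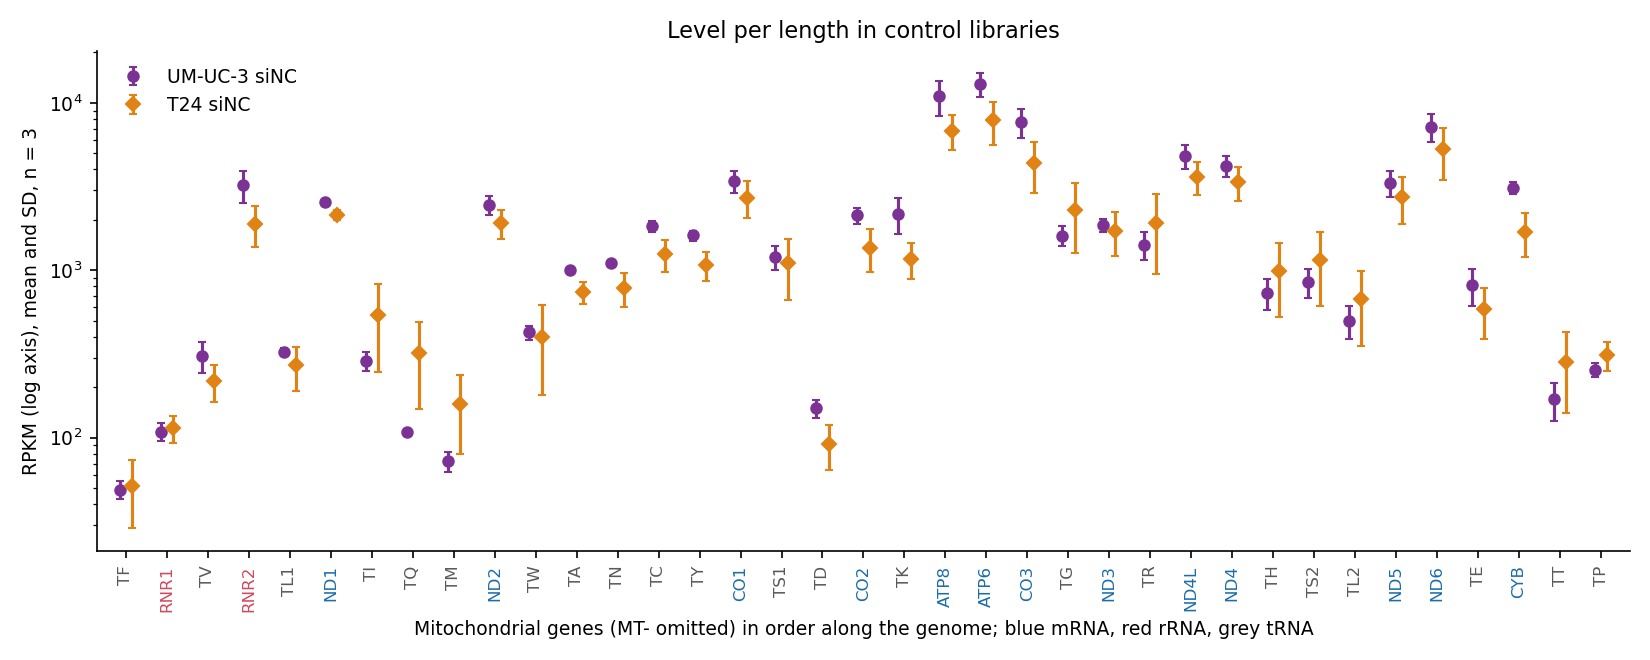
RPKM on a log axis of the 37 mitochondrial genes in genome order, as mean and SD of the 3 siNC libraries of UM-UC-3 (circles) and of T24 (diamonds). MT-ATP6 and MT-ATP8 are at the top, MT-RNR1 sits far below MT-RNR2, and the bars of several T24 tRNAs (MT-TI, MT-TQ, MT-TM) are long.

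The question of each comparison was whether cell line, ACAT1 knockdown, choice of siRNA or replicate number moved the mitochondrial RNAs. As a share of all counts, the mitochondrial genes held 6.17%, 5.72% and 5.01% in UM-UC-3 siNC replicates 1 to 3, 5.89%, 5.98% and 4.34% with siACAT1-1, and 5.96%, 5.98% and 4.34% with siACAT1-2. In T24 they held 4.18%, 3.01% and 4.67% with siNC, 4.70%, 3.54% and 5.28% with siACAT1-1, and 4.52%, 3.33% and 5.15% with siACAT1-2. Replicate 3 was the lowest of its group in all 3 UM-UC-3 groups and replicate 2 in all 3 T24 groups. In bulk libraries, fewer cells of a type and less RNA per cell cannot be told apart.

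The share was higher in UM-UC-3 (5.49% ± 0.729, SD, n = 9) than in T24 (4.26% ± 0.806, n = 9), by 1.22 percentage points (exact permutation test within siRNA, two-sided, p = 0.009), but the adjusted p over the 12 share comparisons was 0.054. The test takes the 9 libraries of a line as independent. Same-numbered libraries of a line shared their level, so both p-values may be too small. The difference was 1.69 points without UM-UC-3 replicate 3, 0.739 without T24 replicate 2 (permutation adjusted p = 0.201) and 1.20 without both. These libraries were picked out by their low mitochondrial share, so a pass without them is no support. With all other libraries kept, it passed when the siACAT1-1 or siACAT1-2 replicate 3 library of either line was left out (1.35 to 1.41 points). These libraries had the lowest share of their group in UM-UC-3 and the highest in T24. Leaving 1 out therefore enlarges the difference, and these passes are no support either. Knockdown moved the share by 0.123 points (12 siACAT1 libraries, 4.92%, against 6 siNC libraries, 4.79%, permutation p = 0.753, adjusted p = 0.84). Against siNC of the same number, the share was higher in 6 of 6 pairs in T24, by 0.323 to 0.604 points, and in UM-UC-3 the differences were -0.28 and -0.20 points in replicate 1, 0.265 and 0.26 in replicate 2, and -0.68 and -0.68 in replicate 3. siACAT1-2 and siACAT1-1 differed by -0.07 points (exact permutation p = 0.77, adjusted p = 0.84).

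The mRNAs made up most of these counts, and the rRNA share of mitochondrial counts varied most. The rRNA genes held 7.71%, 7.48% and 12.6% in UM-UC-3 siNC replicates 1 to 3, 12.6%, 9.36% and 17.9% with siACAT1-1, and 9.18%, 9.98% and 18.9% with siACAT1-2. In T24 they held 5.66%, 13.2% and 6.13% with siNC, 8.99%, 14.2% and 8.96% with siACAT1-1, and 7.15%, 13.5% and 8.60% with siACAT1-2. UM-UC-3 replicate 3 and T24 replicate 2 were the highest of every group, so the libraries with the lowest mitochondrial share had the highest rRNA share.

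Within each replicate number the rRNA share was higher with either siRNA than with siNC, in 12 of 12 pairs, by 0.357 to 6.32 points. The 2 siRNAs of a number share 1 siNC library. The mean difference was 2.82 points (11.6% against 8.79%). It did not pass when libraries were permuted within cell line (exact permutation p = 0.137, adjusted p = 0.549), and it passed when labels were permuted within replicate number (exact permutation p = 0.00137, the smallest that 729 arrangements give, adjusted p = 0.0110). The latter adjustment was over fewer results, since the lines cannot be compared within a number, so the 2 adjusted values are not on the same footing. Without UM-UC-3 replicate 3 and T24 replicate 2, which had the highest rRNA shares, it was 2.61 points. Histone genes, most of whose mRNAs carry no poly(A) tail, were also higher in 12 of 12 of these pairs, at 0.00342% to 0.0169% of all counts with siACAT1 and 0.00224% to 0.0128% with siNC. A set of 5 other nuclear RNAs without poly(A) tails (RN7SK, RN7SL1, RN7SL2, RMRP and RPPH1) was higher in 5 of 12. The part of these in the rRNA share was not tested.

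The tRNA genes held 2.01% to 3.20% of mitochondrial counts. Their share was 0.422 points lower in UM-UC-3 (2.26% ± 0.220, SD, n = 9) than in T24 (2.68% ± 0.286, n = 9; exact permutation p = 0.00575, adjusted p = 0.054). Here too the test takes same-numbered libraries of a line as independent, so these p-values may be too small. The difference was -0.50 points without UM-UC-3 replicate 3, -0.53 without T24 replicate 2 and -0.61 without both. Knockdown moved the tRNA share by 0.0771 points (permutation adjusted p = 0.84). MT-ND6, the one mRNA on the minus strand, held 6.37% to 9.28% of mRNA counts, and its share differed by 0.468 points with knockdown (exact permutation adjusted p = 0.761, and 0.181 within replicate number).

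**Figure D2:**
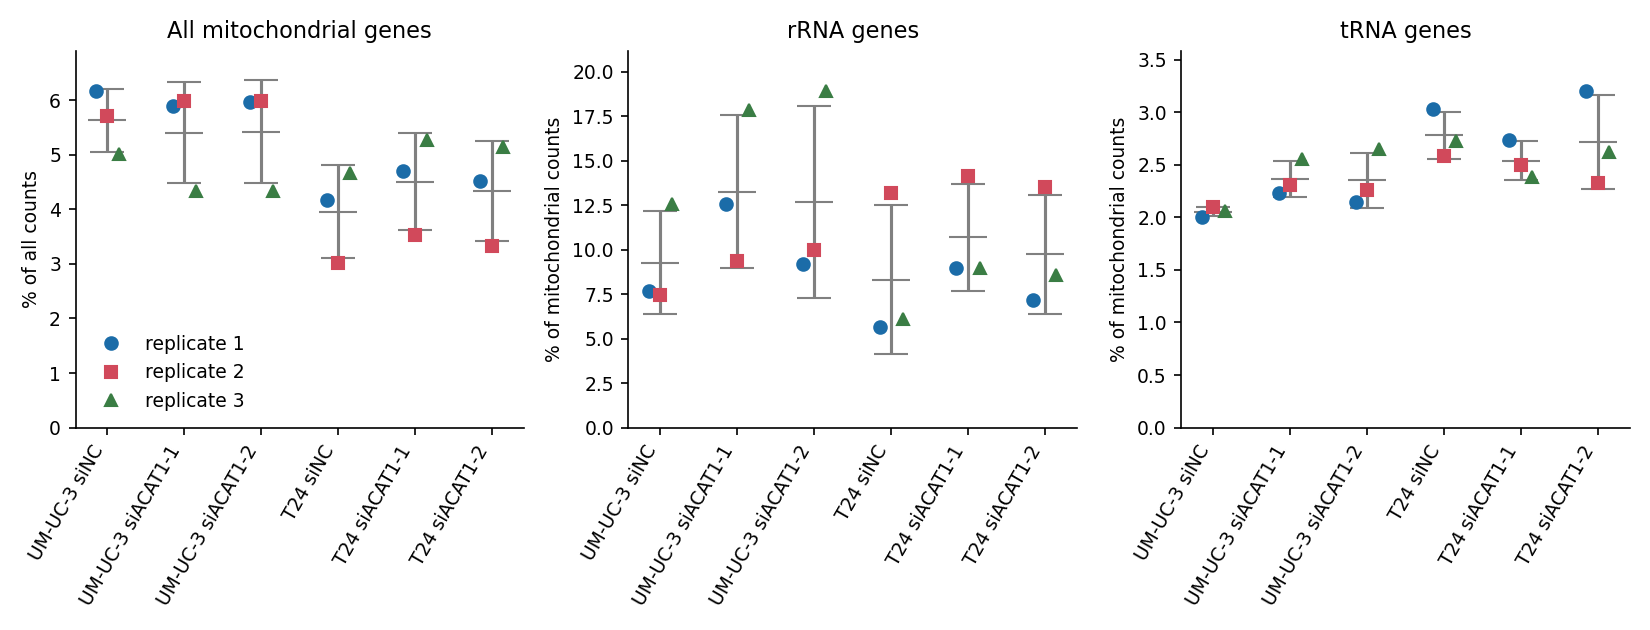
Share of all counts on the 37 mitochondrial genes (left) and shares of mitochondrial counts on the 2 rRNA genes (middle) and 22 tRNA genes (right) in each library, with the mean and SD of each group of 3. Symbols give the replicate number. The triangle is lowest on the left and highest in the middle in each UM-UC-3 group, and the square likewise in each T24 group.

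With all libraries, more mitochondrial genes were called by replicate number than by any siRNA or by cell line. These counts come from unlike tests and do not rank the factors. Replicate number was tested over all libraries of a line, but cell line between the siNC libraries alone. The cell line test called 10 of 37 members and 44.3% of all genes. The test of replicate number within T24 called 31 of 37 mitochondrial genes (edgeR F test, adjusted p under 0.05, against 43.9% of all genes tested), namely 12 mRNAs, 1 rRNA and 18 tRNAs. Within UM-UC-3 it called 23 of 37 (11 mRNAs, 2 rRNAs and 10 tRNAs), against 24.6% of all genes.

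In T24 replicate 2, all 13 mRNAs were below the mean of the 3 numbers, by a median of 0.47 on the log2 scale. The deviation was slight in MT-ND1 (-0.03) and MT-ND2 (-0.25), which lie early in the plus-strand precursor. It was larger in MT-CO1 (-0.42), MT-CO3 (-0.63), MT-ND5 (-0.69) and the minus-strand MT-ND6 (-0.73), although MT-ND4L (-0.37), MT-ND4 (-0.38) and MT-CYB (-0.54) did not follow that order. Both rRNAs were above the mean, by 0.17 each, and the call was for MT-RNR2 alone (adjusted p = 0.0351, against 0.0531 for MT-RNR1, edgeR).

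The tRNAs of T24 replicate 2 differed widely among themselves. MT-TI, the tRNA for isoleucine, was at 205 RPKM in siNC replicate 2 against 669 and 738 in replicates 1 and 3, at 144 against 455 and 521 with siACAT1-1, and at 167 against 903 and 794 with siACAT1-2. Replicate 2 was thus lowest in each T24 group, and its deviation was -1.37 (edgeR F test, adjusted p = 8.68e-09). MT-TQ (-1.26), MT-TM (-1.11) and MT-TW (-1.11), which with MT-TI surround MT-ND2, were similarly low.

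A further set of plus-strand tRNAs, MT-TG (-1.01), MT-TR (-1.13), MT-TH (-1.06), MT-TS2 (-1.05), MT-TL2 (-1.03) and MT-TT (-1.06), deviated by about as much. The mRNAs between them deviated less, as with MT-ND3 (-0.62), MT-ND4L and MT-ND4. By contrast, MT-TA, MT-TN, MT-TC and MT-TY, 4 neighbouring minus-strand tRNAs for alanine, asparagine, cysteine and tyrosine, deviated by -0.06, 0.13, 0.13 and 0.12 and were not called. MT-TF (0.51), MT-TV (0.20) and MT-TL1 (0.34), which flank the rRNAs, were above the mean. The remaining 5 lay between these sets, with MT-TD (-0.32) and MT-TK (-0.37) on the plus strand and MT-TS1 (-0.81), MT-TE (-0.70) and MT-TP (-0.48) on the minus strand, all called.

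In UM-UC-3 replicate 3 all 13 mRNAs were again below the mean, by a median of 0.40, and both rRNAs above it, each by 0.25 (edgeR F test, adjusted p = 0.0116 for MT-RNR1 and for MT-RNR2). MT-TK, for lysine, was the lowest tRNA (-0.64), with 1563 RPKM in siNC replicate 3 against 2407 and 2564, 1126 against 2617 and 2356 with siACAT1-1, and 1046 against 2081 and 1945 with siACAT1-2. MT-TI deviated by -0.29 and MT-TQ by -0.21, neither of them called. MT-TA, MT-TN, MT-TC and MT-TY were within 0.05 of the mean and not called.

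NEAT1, a nuclear-retained RNA, was above the mean by 0.69 in UM-UC-3 replicate 3 and by 0.99 in T24 replicate 2, (edgeR F test, adjusted p = 0.00053 and 3.98e-06). MALAT1, another, was above it by 0.13 and 0.52 (adjusted p = 0.184 and 1.68e-06). These RNAs were thus higher in the libraries where the mitochondrial mRNAs were lower. Their part in the difference was not tested, and the labels do not say what the numbers share beyond being biological replicates.

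**Figure D3:**
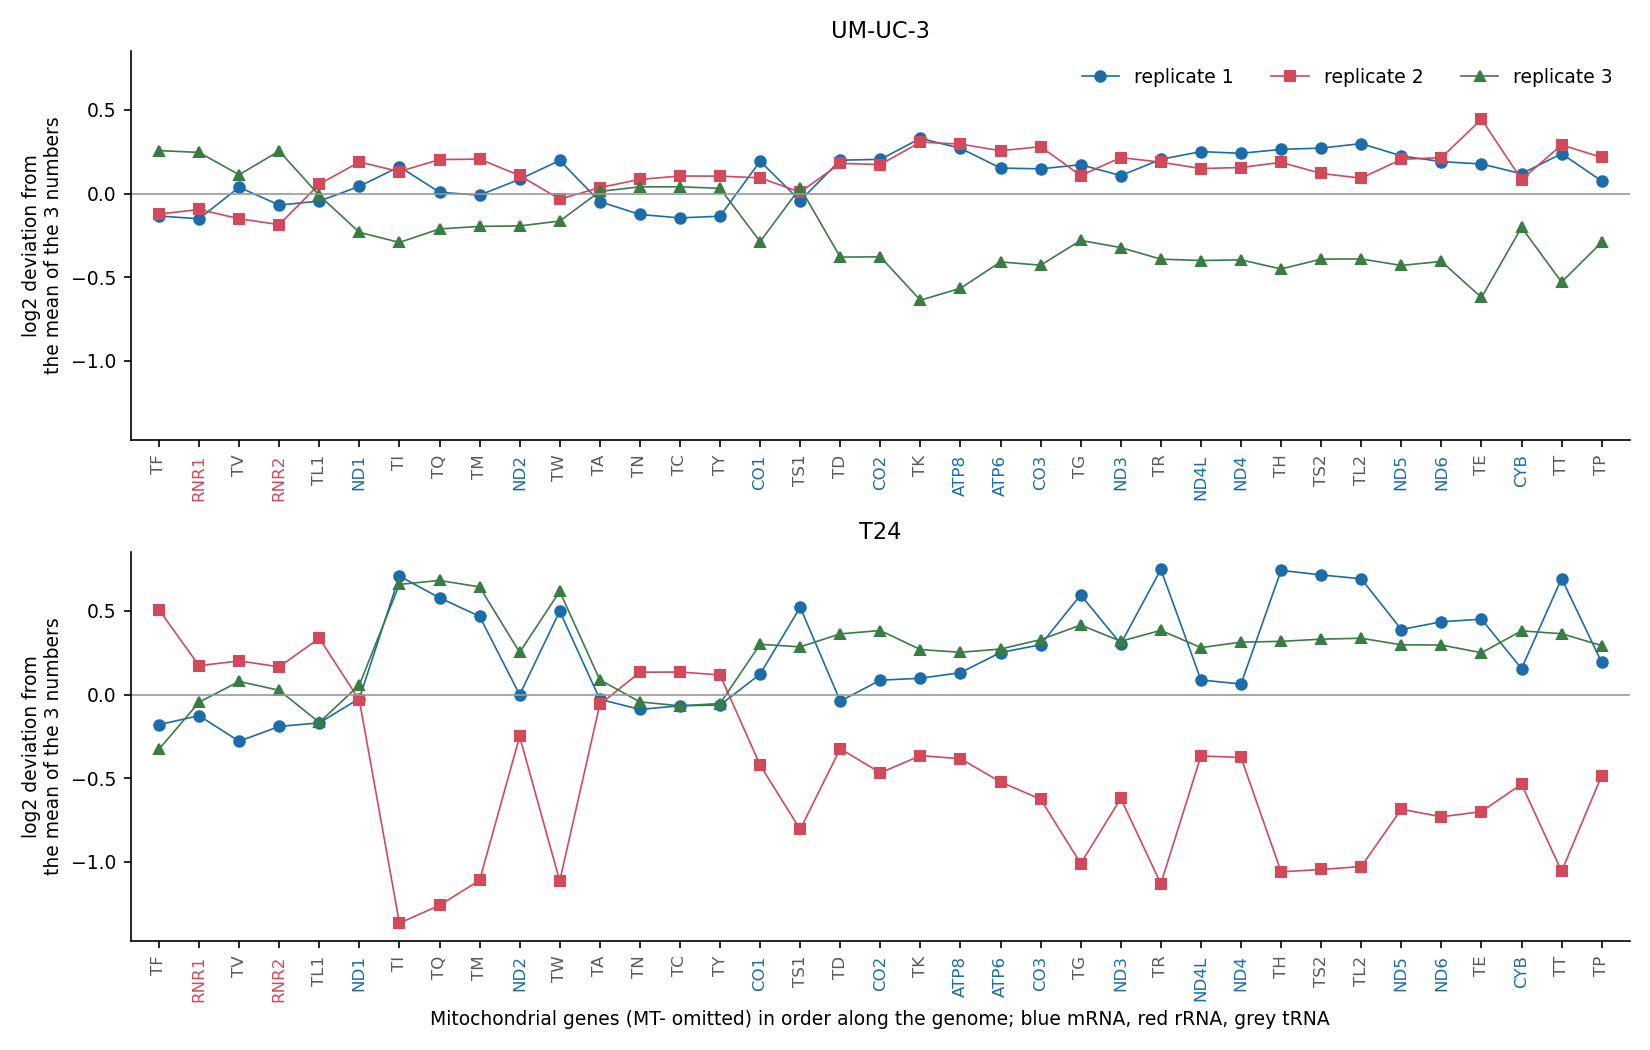
Deviation of each replicate number from the mean of the 3 numbers (log2, edgeR model) for the 37 mitochondrial genes in genome order, in UM-UC-3 (top) and T24 (bottom). In T24 replicate 2 runs from 0.51 at MT-TF to -1.37 at MT-TI and returns to near 0 at MT-TA to MT-TY; in UM-UC-3 replicate 3 lies below 0 from MT-TD onwards.

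Between the control cells, 9 of the 37 mitochondrial genes were higher in UM-UC-3 siNC than in T24 siNC and 1 was lower (edgeR, adjusted p under 0.05). Of all 20144 genes tested 44.3% were called, 22% higher and 22.3% lower. The number called higher was thus near the share of all genes, and calls in either direction were less frequent than among all genes. The median log2 fold change of the 37 was 0.36, against 0.03 over all genes. MT-RNR2 was at 2987, 2679 and 3975 RPKM in UM-UC-3 siNC and at 1454, 2458 and 1774 in T24 siNC, with no overlap (log2 fold change 0.81 ± 0.20 SE, adjusted p = 0.00295, edgeR). MT-RNR1 was at 101, 101 and 124 against 101, 139 and 102, and overlapped (log2 fold change -0.02 ± 0.18).

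Among the mRNAs, MT-CYB was at 3341, 2819 and 3186 RPKM against 1764, 1168 and 2172, without overlap (0.91 ± 0.28, edgeR adjusted p = 0.0135). MT-CO3 was at 7733, 9134 and 6125 against 4976, 2688 and 5444, also without overlap (0.85 ± 0.33, adjusted p = 0.0483). The other 11 mRNAs had values of 0.15 (MT-ND3) to 0.75 (MT-ATP6, adjusted p = 0.0508) that did not pass the test.

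Of the 22 tRNAs 7 were called. MT-TA (0.50 ± 0.13), MT-TN (0.56 ± 0.15), MT-TC (0.61 ± 0.15) and MT-TY (0.64 ± 0.14) were higher in UM-UC-3, as were MT-TV (0.55 ± 0.21), for valine, and MT-TK (0.94 ± 0.33), the largest of the 37. MT-TK was at 2407, 2564 and 1563 RPKM in UM-UC-3 siNC and at 1247, 858 and 1414 in T24 siNC, without overlap. MT-TQ was lower (-1.54 ± 0.54, edgeR adjusted p = 0.0275), at 113, 108 and 102 RPKM against 377, 126 and 457.

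The count of 10 changed with the libraries used. It was 6 without UM-UC-3 siNC replicate 1, 17 without the T24 replicate 2 libraries and 21 without those and UM-UC-3 replicate 3. How the share of all genes called changed in these fits is not given here, so the changes cannot be read as particular to the mitochondrial genes. Both sets of same-numbered libraries were picked for their mitochondrial counts, so calls gained without them are no support. The additional genes without both sets were 3 mRNAs (MT-CO2, MT-ATP8 and MT-ATP6) and MT-TL1, higher in UM-UC-3, and MT-TI, MT-TM, MT-TG, MT-TR, MT-TH, MT-TS2, MT-TL2 and MT-TT, lower, while MT-TV was no longer called. Line and culture medium cannot be told apart here.

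**Figure D4:**
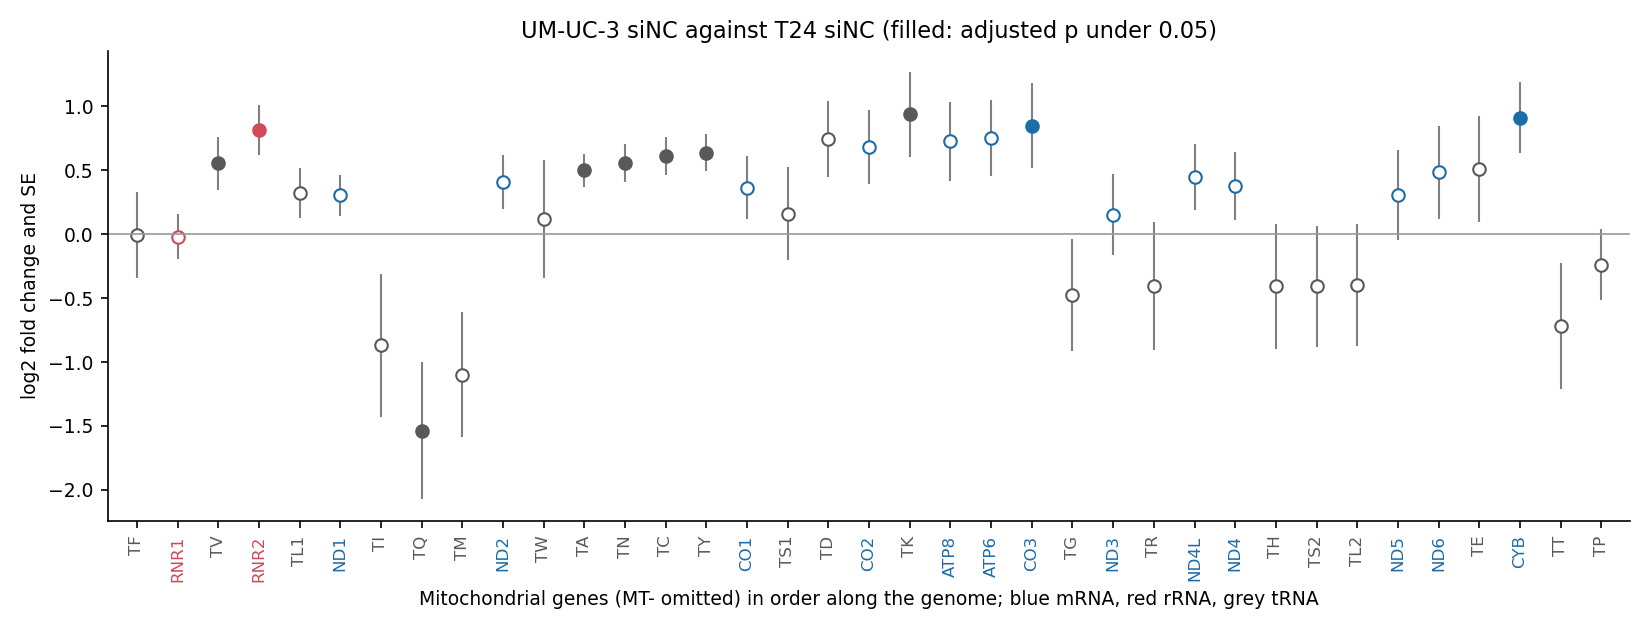
log2 fold change and SE (edgeR) of the 37 mitochondrial genes in genome order, UM-UC-3 siNC against T24 siNC, with filled symbols for adjusted p under 0.05. MT-TK is highest at 0.94 and MT-TQ lowest at -1.54, and the 4 adjoining tRNAs MT-TA to MT-TY lie between 0.50 and 0.64.

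With ACAT1 knockdown, MT-TA and MT-TN were called higher than in siNC in the mean over lines and siRNAs. Both were close to the threshold, and each call was lost in 16 of the 18 fits that left out 1 library. Both rRNAs, MT-TV, MT-TL1, MT-TC, MT-TY and MT-TP were called higher by edgeR with replicate number as a block and not without it, and no mRNA passed in either fit. DESeq2 without the block called 6, MT-TV, MT-RNR2, MT-TA, MT-TN, MT-TC and MT-TY. The share of all genes called by DESeq2 is not given here, so its counts have no background in this and later comparisons. The 4 comparisons of an siRNA with siNC use the same siNC libraries within a line, and their mean weights them equally. In the model without replicate numbers, the mean called 2 of 37 mitochondrial genes, against 0.223% of all genes tested: MT-TN (0.46 ± 0.09) and MT-TA (0.40 ± 0.08), each with an adjusted p of 0.0493 (edgeR). With replicate number as a block it called 11 of 37, against 12.4% of all genes (5.95% higher and 6.46% lower).

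The 9 higher with the block were MT-RNR1 (0.23 ± 0.06), MT-TV (0.52 ± 0.09), MT-RNR2 (0.47 ± 0.07) and MT-TL1 (0.25 ± 0.07), which adjoin each other, MT-TA (0.40 ± 0.07), MT-TN (0.46 ± 0.07), MT-TC (0.45 ± 0.06) and MT-TY (0.44 ± 0.07), and MT-TP (0.28 ± 0.08), for proline. Their edgeR adjusted p ran from 0.000172 (MT-TC) to 0.0278 (MT-TL1 and MT-TP). MT-TH, for histidine (-0.31 ± 0.08, adjusted p = 0.0127), and MT-TS2 (-0.27 ± 0.08, adjusted p = 0.0306) were lower. None of the 13 mRNAs was called, with values of -0.11 (MT-CYB) to 0.17 (MT-ND1).

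MT-RNR2 was at 2987, 2679 and 3975 RPKM in UM-UC-3 siNC replicates 1 to 3, at 4680, 3529 and 4883 with siACAT1-1 and at 3445, 3755 and 5165 with siACAT1-2. In T24 it was at 1454, 2458 and 1774 with siNC, at 2639, 3119 and 2958 with siACAT1-1 and at 1995, 2792 and 2740 with siACAT1-2. The groups overlapped within each line except for T24 siACAT1-1, yet each knockdown library was above the siNC library of its number. MT-RNR1, at 101 to 139 RPKM in siNC libraries and 106 to 163 in knockdown libraries, was likewise higher in 12 of 12 pairs of the same number. In UM-UC-3 it was at 106, 106 and 146 RPKM with siACAT1-1 and at 112, 117 and 159 with siACAT1-2. In T24 it was at 113, 154 and 121 with siACAT1-1 and at 123, 163 and 159 with siACAT1-2.

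MT-TN was at 1042, 1139 and 1125 RPKM in UM-UC-3 siNC, at 1442, 1510 and 1556 with siACAT1-1 and at 1341, 1695 and 1715 with siACAT1-2. In T24 it was at 630, 976 and 729 with siNC, at 1214, 1263 and 1153 with siACAT1-1 and at 777, 1028 and 937 with siACAT1-2. The knockdown libraries did not overlap those with siNC except for T24 siACAT1-2. MT-TA, MT-TC, MT-TY, MT-TV and MT-TT, for threonine, were also higher in 12 of 12 pairs of the same number, and MT-TH was lower in 12 of 12, at a median of -0.33 on the log2 scale. MT-TV was at 330, 234 and 357 RPKM with siNC, 455, 379 and 446 with siACAT1-1 and 414, 436 and 481 with siACAT1-2 in UM-UC-3, and at 172, 276 and 202 RPKM with siNC, 312, 383 and 372 with siACAT1-1 and 176, 331 and 318 with siACAT1-2 in T24. MT-TH was at 859, 777 and 562 RPKM with siNC, 693, 767 and 442 with siACAT1-1 and 805, 637 and 464 with siACAT1-2 in UM-UC-3, and at 1327, 458 and 1186 RPKM with siNC, 978, 360 and 750 with siACAT1-1 and 1267, 313 and 925 with siACAT1-2 in T24. For MT-TH the siNC and knockdown ranges overlapped in each line.

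In UM-UC-3 with siACAT1-1, 0 mitochondrial genes passed without the block (edgeR, 0.00993% of all genes, 6 members and 1075 of all 20144 genes at an unadjusted p under 0.05, and 0 by DESeq2), and 5 passed with it (3.06% of all genes, 1.96% higher and 1.1% lower). These were MT-RNR2 (0.45 ± 0.11), MT-TA (0.41 ± 0.11), MT-TN (0.45 ± 0.11), MT-TC (0.44 ± 0.10) and MT-TY (0.44 ± 0.11), all higher. MT-TV was the highest of the 37 (0.49 ± 0.14, adjusted p = 0.0602) and MT-CYB the lowest (-0.34 ± 0.11, adjusted p = 0.0977). MT-CYB was at 3341, 2819 and 3186 RPKM with siNC, 2622, 2786 and 2068 with siACAT1-1 and 3079, 2945 and 2189 with siACAT1-2. The count of 5 depended on single libraries, being 0 without siNC replicate 1 or 3 or siACAT1-1 replicate 1 or 3, 2 without replicate 2 of siNC or of siACAT1-1, and 0 without all UM-UC-3 replicate 3 libraries.

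With siACAT1-2 in the same line, 0 passed without the block (edgeR, 0.0546% of all genes, 0.0149% higher and 0.0397% lower, 5 members and 777 of all 20144 genes at an unadjusted p under 0.05, and 0 by DESeq2), and 3 with it (1.36% of all genes, 0.635% higher and 0.72% lower): MT-TN (0.48 ± 0.11), MT-TC (0.47 ± 0.10) and MT-TY (0.44 ± 0.11). MT-TV was the highest (0.51 ± 0.14, adjusted p = 0.0771) and MT-TK the lowest (-0.44 ± 0.11, adjusted p = 0.0597). The count was 0 without any 1 of the 6 UM-UC-3 siNC and siACAT1-2 libraries, 0 without UM-UC-3 replicate 3, 5 without T24 siACAT1-1 replicate 2 and 6 without all T24 replicate 2 libraries, which enter through the shared estimate of spread.

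In T24 with siACAT1-1, 0 members passed without the block (edgeR, 0.124% of all genes, 0.0695% higher and 0.0546% lower, 8 members and 2325 of all 20144 genes at an unadjusted p under 0.05), while DESeq2 called 5 (MT-TV, MT-TA, MT-TN, MT-TC and MT-TY). With the block 15 passed (13.9% of all genes, 6.59% higher and 7.31% lower), 10 of them higher. MT-TV (0.75 ± 0.14), MT-TN (0.67 ± 0.11), MT-TY (0.67 ± 0.11), MT-TC (0.66 ± 0.10), MT-RNR2 (0.65 ± 0.11), MT-TP (0.63 ± 0.13), MT-TA (0.52 ± 0.11) and MT-TL1 (0.46 ± 0.12) were joined by the mRNAs MT-ND1 (0.33 ± 0.10, adjusted p = 0.0332) and MT-CO1 (0.29 ± 0.08, adjusted p = 0.0246).

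The 5 lower in that comparison were tRNAs of the plus strand, MT-TI (-0.51 ± 0.15), MT-TH (-0.47 ± 0.13), MT-TR (-0.46 ± 0.13), MT-TG (-0.44 ± 0.13) and MT-TS2 (-0.43 ± 0.13). These are among the tRNAs that also deviated most with replicate number. The count with the block was 7 without T24 siNC replicate 1 or 3 or siACAT1-1 replicate 3, 9 without siNC replicate 2 and 6 without siACAT1-1 replicate 1. It was 15 without all T24 replicate 2 libraries, with MT-TQ and MT-TL2, both lower, in place of MT-ND1 and MT-CO1. Without the block it was 3 without siNC replicate 2, 2 without siACAT1-1 replicate 2 and 3 without all T24 replicate 2 libraries.

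In T24 with siACAT1-2, 0 members passed without the block (edgeR, 0.268% of all genes, 0.104% higher and 0.164% lower, 2 members and 1700 of all 20144 genes at an unadjusted p under 0.05, and 0 by DESeq2), and 3 passed with it (8.48% of all genes, 4.55% higher and 3.93% lower): MT-RNR1 (0.41 ± 0.10), MT-RNR2 (0.44 ± 0.11) and MT-TP (0.49 ± 0.13), the highest of the 37. MT-TH was the lowest (-0.29 ± 0.13, adjusted p = 0.176). MT-TP was at 325, 243 and 362 RPKM with siNC, 504, 370 and 559 with siACAT1-1 and 474, 282 and 565 with siACAT1-2. MT-TN had a log2 fold change of 0.26 ± 0.11 (adjusted p = 0.151) and MT-TC one of 0.22 ± 0.10 (adjusted p = 0.203), values below those of the other 3 comparisons. The count of 3 was 0 without T24 siNC replicate 1 or 3 or siACAT1-2 replicate 3.

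**Figure D5:**
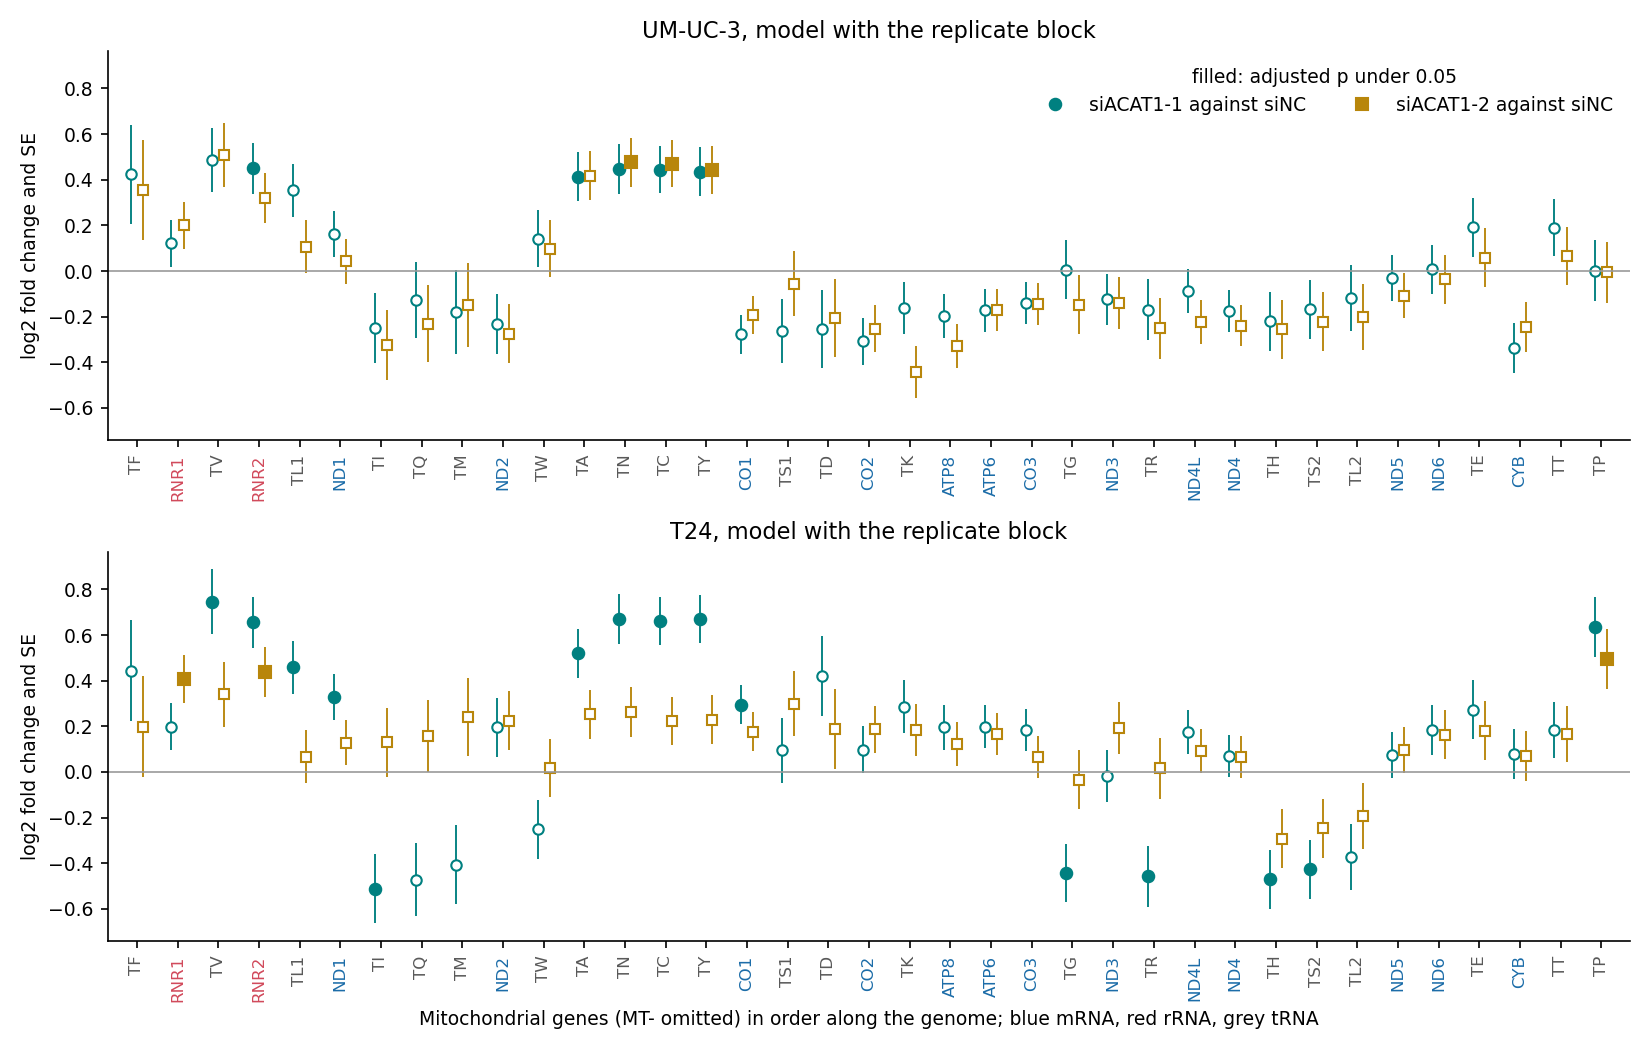
log2 fold change and SE (edgeR, replicate number as a block) of each siRNA against siNC for the 37 mitochondrial genes in genome order, in UM-UC-3 (top) and T24 (bottom), with filled symbols for adjusted p under 0.05. Both siRNAs lie above 0 at MT-RNR1 to MT-RNR2 and at MT-TA to MT-TY in both lines, and from MT-TI to MT-TW siACAT1-1 and siACAT1-2 part in T24.

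Differences between the lines and between the siRNAs were tested directly. The knockdown effect in UM-UC-3 minus that in T24 gave 0 calls without the block (edgeR, 0% of all genes, 0 members and 517 of all 20144 genes at an unadjusted p under 0.05, 0 by DESeq2) and 0 with it (0.104% of all genes, 0.0596% higher and 0.0447% lower, 12 members and 1905 of all genes at an unadjusted p under 0.05). Without the block MT-TP had the lowest value (-0.56 ± 0.34) and MT-TW, for tryptophan, the highest (0.26 ± 0.57), each with an adjusted p of 1.00. In UM-UC-3, MT-TP was at 240, 282 and 244 RPKM with siNC, 291, 280 and 205 with siACAT1-1 and 286, 318 and 195 with siACAT1-2. MT-TW was at 471, 406 and 398 RPKM with siNC, 578, 449 and 393 with siACAT1-1 and 514, 444 and 444 with siACAT1-2 in UM-UC-3, and at 434, 165 and 604 RPKM with siNC, 380, 160 and 420 with siACAT1-1 and 526, 154 and 528 with siACAT1-2 in T24. With the block MT-TP had the lowest value (-0.57 ± 0.16, adjusted p = 0.208) and MT-TW the highest (0.24 ± 0.15, adjusted p = 0.672). Without the block the median of the 37 for siACAT1-1 was -0.10 in UM-UC-3 and 0.18 in T24, and for siACAT1-2 it was -0.13 and 0.17.

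The 2 siRNAs against ACAT1, siACAT1-2 and siACAT1-1, differed in 0 members without the block (edgeR, 2.56% of all genes, 1.18% higher and 1.38% lower, 1 member and 3369 of all 20144 genes at an unadjusted p under 0.05, 0 by DESeq2) and in 2 with it (20.6% of all genes, 10.4% higher and 10.2% lower). MT-TL1 (-0.32 ± 0.08, adjusted p = 0.00842) and MT-TY (-0.22 ± 0.07, adjusted p = 0.0448) were lower with siACAT1-2. MT-TL1 was at 324, 309 and 346 RPKM with siNC, 429, 427 and 395 with siACAT1-1 and 323, 391 and 372 with siACAT1-2 in UM-UC-3, and at 221, 362 and 228 RPKM with siNC, 327, 446 and 320 with siACAT1-1 and 214, 369 and 256 with siACAT1-2 in T24. MT-TM, for methionine, was at 82.3, 72.9 and 61.9 RPKM with siNC, 58.9, 79.1 and 54.8 with siACAT1-1 and 61.3, 76.4 and 63.9 with siACAT1-2 in UM-UC-3, and at 178, 71.5 and 227 RPKM with siNC, 121, 58.5 and 171 with siACAT1-1 and 254, 67.4 and 253 with siACAT1-2 in T24, and had the highest value (0.34 ± 0.13, adjusted p = 0.0626). The count with the block was 1 in 13 of the 18 fits that left out 1 library, 3 without UM-UC-3 siACAT1-1 replicate 2, T24 siNC replicate 2 or T24 siACAT1-2 replicate 3, 4 without T24 siACAT1-2 replicate 2, and 6 without T24 siACAT1-1 replicate 2. It was 8 without all T24 replicate 2 libraries, the additional ones being MT-TC, lower, and MT-TI, MT-TQ, MT-TM, MT-TG and MT-TR, higher.

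For the mean of the 4 knockdown comparisons, the count with the block was 6 without T24 siNC replicate 3, 7 without all UM-UC-3 replicate 3 libraries, 11 without all T24 replicate 2 libraries and 8 without both sets. MT-TV, MT-RNR2, MT-TA, MT-TN, MT-TC, MT-TY and MT-TP were called in each of these last 3 fits, and MT-RNR1, MT-TL1, MT-TH and MT-TS2 were lost without UM-UC-3 replicate 3. The libraries left out there were chosen for their mitochondrial counts, so calls kept without them are no support. Without the block the 2 calls were lost when any 1 library was left out in 16 of 18 cases, and 4 were made without T24 siNC replicate 2 or T24 siACAT1-1 replicate 2.

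Nuclear genes whose products maintain, transcribe and process mitochondrial RNA were examined beside the members. In the mean of the 4 knockdown comparisons, 0 of 36 passed without the block (edgeR, 4 of them and 2201 of all 20144 genes at an unadjusted p under 0.05, 1 by DESeq2). With the block 3 of 36 were lower, where 12.4% of all genes were called in either direction: MRM1, an rRNA methyltransferase (-0.81 ± 0.18), MTERF2, of the transcription termination factor family (-0.38 ± 0.09), and TRNT1, which adds CCA to tRNAs (-0.27 ± 0.08). The median log2 fold change of the 36 was -0.0064, against -0.00099 over all genes. With siACAT1-1 in T24, the block called 4 of 36, against 13.9% of all genes: POLRMT, the mitochondrial RNA polymerase (0.51 ± 0.13), and FASTKD2, an RNA-binding protein of ribosome assembly (0.43 ± 0.13), higher and MRM1 and TRNT1 lower. With siACAT1-2 in T24 it called 2 of 36, against 8.48% of all genes: POLG2, a subunit of the DNA polymerase (-0.51 ± 0.14), and HSD17B10, a subunit of mitochondrial RNase P (-0.65 ± 0.16), lower.

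Between the control cells 11 of the 36 were called, where 44.3% of all genes were. LRPPRC, which stabilises mitochondrial mRNAs (1.08 ± 0.15), POLRMT (0.94 ± 0.15), MTERF2 (0.80 ± 0.18) and MTPAP, the mitochondrial poly(A) polymerase (0.52 ± 0.18), were higher in UM-UC-3. MTERF1 (-1.33 ± 0.25), PDE12, which removes poly(A) tails (-1.19 ± 0.32), FASTKD2 (-1.09 ± 0.25), POLG, the catalytic subunit of the DNA polymerase (-1.02 ± 0.19), MRM2 (-0.79 ± 0.24), C10orf2, the helicase Twinkle (-0.62 ± 0.24), and HSD17B10 (-0.59 ± 0.21) were lower. HSD17B10 was also lower with siACAT1-2 than with siACAT1-1 (-0.68 ± 0.15, edgeR adjusted p = 0.0234), the one call of the 36 there without the block (2.56% of all genes). With the block 8 of 36 were called there, TEFM higher and HSD17B10, TFAM, PNPT1, PDE12, FASTKD2, MRM3 and MTPAP lower, against 20.6% of all genes.

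The nuclear subunits of complexes III, IV and V, which are assembled with the products of MT-CYB, MT-CO1 to MT-CO3, MT-ATP6 and MT-ATP8, showed a difference between the lines. Of 34, 17 were higher in UM-UC-3 siNC and 5 lower, where 44.3% of all genes were called, with a median of 0.45 against 0.03 for all genes. ATP5B, the beta subunit of ATP synthase, was the highest (1.55 ± 0.14) and COX4I1, a subunit of complex IV, the lowest (-0.66 ± 0.15). In the mean of the 4 knockdown comparisons 0 of 34 were called without the block (edgeR, 0 of them and 2201 of all 20144 genes at an unadjusted p under 0.05, 0 by DESeq2) and 1 with it, COX7A2 (0.21 ± 0.06), against 12.4% of all genes. Between the siRNAs 0 of 34 were called without the block (edgeR, 5 of them and 3369 of all 20144 genes at an unadjusted p under 0.05, 3 by DESeq2). With the block 5 of 34 were higher with siACAT1-2 (COX5A, COX5B, COX8A, ATP5C1 and ATP5H) and 0 lower, against 20.6% of all genes called (10.4% higher).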

How the data were processed

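RNA-seq gene counts of 18 libraries (6 groups of 3) were analysed. According to the labels and methods, total RNA went into a stranded mRNA library kit with molecular identifiers; reads were trimmed with Trimmomatic 0.36, mapped to GRCh38 with STAR 2.5.3 and counted on exons with featureCounts (Subread 1.5.1). The deposited counts were not normalized by the authors, and the RPKM values deposited by the authors were recomputed from them to within 4.36e-06. The annotation release, strand setting, treatment of reads overlapping several genes and use of the identifiers in the counts are not given in the sources used here. Of counts from 1 to 20, 73.0% were even. Depth was 25163490 to 34417230 counts; intervals were not needed, and the spread is that between libraries.

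Counts were tested with edgeR 4.0.16 in R 4.3.3 (TMM, filterByExpr by group, quasi-likelihood test, 6 group coefficients, 20144 genes, Benjamini-Hochberg over all of them, threshold 0.05). SE is that of the log2 fold change. The labels give replicate numbers 1 to 3 in each group. Deviations from the group mean were correlated across genes. Same-numbered libraries of a line correlated above 0.1 in every pair (9 pairs in each line, medians 0.433 in UM-UC-3 and 0.524 in T24). Pairs of unlike numbers had medians of -0.110 and -0.404 but reached 0.269 and 0.210. In UM-UC-3 that was above the lowest same-numbered pair, 0.115. A fit with the number as a block within each line is therefore given beside the fit without it. Shares were compared by exact two-sided permutation tests, adjusted over 12 results. Those between the lines ignore the level that same-numbered libraries of a line share, so their p-values may be too small. Where labels were permuted within replicate number, the comparisons of the lines were left out and the adjustment was over the remaining results. In these tests 3 libraries against 3 could not give a p under 0.1. Alternatives were other size factors, no filter, DESeq2 1.42.0, the log2 ratio or RPKM for shares, 1 library left out, and 2 sets of same-numbered libraries left out, the last added after seeing the data. On simulated data (UM-UC-3 siACAT1-2 against siNC, 19522 genes) 46% of 100 genes changed by 1 on the log2 scale and 96% of 100 changed by 2 were called. Values in every library are given for both rRNAs, MT-ND6, the mRNAs with the highest and lowest mean RPKM and the 2 tRNAs with the highest mean count. For the highest and lowest member of a comparison they are given at least in the groups compared. All members called between groups with all libraries are named. The members and lists were chosen with earlier results of these data known. Chromosome M was aligned to the nuclear hg38 genome with blastn 2.17.0 (matches of at least 1000 bases for the best match).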

Additional observations from a re-analysis of the deposited data

Results flagged for a closer look

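MT-CO1, MT-CO2 and MT-ND4 had knockdown values of opposite sign in the lines when each siACAT1 library was compared with siNC of the same number (log2 CPM). MT-CO1 was lower in 6 of 6 pairs in UM-UC-3, with a median of -0.20, and higher in 6 of 6 in T24. MT-CO2 (median -0.18 in UM-UC-3) and MT-ND4 (median -0.11) behaved in the same way, and each siNC library entered 2 pairs. The edgeR test of the difference between the lines gave -0.46 ± 0.30 for MT-CO1, -0.39 ± 0.35 for MT-CO2 and -0.25 ± 0.32 for MT-ND4 without the replicate block (adjusted p = 1.00 for each). With the block it gave -0.47 ± 0.10 (adjusted p = 0.0825), -0.42 ± 0.13 (adjusted p = 0.237) and -0.27 ± 0.11 (adjusted p = 0.434), so none passed. MT-CO1 and MT-CO2 share identical stretches with nuclear copies.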

How the results depend on the processing

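With the replicate block, 5, 3, 15 and 3 mitochondrial genes were called in UM-UC-3 siACAT1-1, UM-UC-3 siACAT1-2, T24 siACAT1-1 and T24 siACAT1-2 against siNC, 11 in their mean and 2 between the siRNAs, against 0, 0, 0, 0, 2 and 0 without it; the block also brought the rRNA share under knockdown past the threshold (2.82 points, adjusted p = 0.0110). The block could not be fitted for UM-UC-3 against T24, since numbers are within lines. For the alternative fits and those with libraries left out, the share of all genes called is not given, so their counts have no background. The mean called 0 with library totals, 1 with no filter and 6 with DESeq2, which called 5 for T24 siACAT1-1. With the block and no filter, 7 were called for UM-UC-3 siACAT1-2 and 2 for the difference between lines. Without UM-UC-3 replicate 3 the mean called 0 (7 with the block), and with the block both UM-UC-3 comparisons gave 0 and the siRNA comparison 1. Without T24 replicate 2 the mean called 6, T24 siACAT1-1 3 and the lines 17, and with the block UM-UC-3 siACAT1-2 gave 6 and the siRNA comparison 8. Without both, the mean called 6, T24 siACAT1-1 7 and the lines 21, and with the block both UM-UC-3 comparisons gave 0.

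For shares, UM-UC-3 against T24 was 1.69, 0.739 (not past the threshold) and 1.20 points (mitochondrial share) and -0.50, -0.53 and -0.61 without UM-UC-3 replicate 3, T24 replicate 2 and both (tRNA share), the others past it; the rRNA share was -0.21, 4.16 and 1.80 (the last past it); MT-ND6 was -0.42 without T24 replicate 2 and -0.32 without both. The rRNA share under knockdown was 2.61 (past it) without both. These libraries were chosen for their mitochondrial counts, so passes without them are no support. MT-ND6 between the siRNAs was -0.00077 without T24 replicate 2.

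Leaving out 1 library gave ranges of 0 to 4 calls in the mean, 0 to 3 in T24 siACAT1-1 and 6 to 13 between the lines; with the block, 0 to 6 and 0 to 5 in UM-UC-3 siACAT1-1 and siACAT1-2, 6 to 16 and 0 to 3 in T24, 6 to 14 in the mean and 1 to 6 between the siRNAs. The mitochondrial share ranged from -0.11 to 0.30 points under knockdown, 1.06 to 1.41 between the lines (adjusted p 0.0195 to 0.1215; under 0.05 without UM-UC-3 or T24 siACAT1-1 or siACAT1-2 replicate 3) and -0.34 to 0.20 between the siRNAs. The rRNA share between the siRNAs ranged from -2.32 to 0.39, the tRNA share from -0.49 to -0.34 between the lines (adjusted p 0.0195 to 0.114; under 0.05 without any of the same libraries or T24 siACAT1-2 replicate 2) and -0.0391 to 0.18 between the siRNAs, and MT-ND6 from -0.00275 to 0.48 between the lines and -0.36 to 0.36 between the siRNAs. The cause of these changes was not tested. Leaving out a library that runs against a difference enlarges it, so the passes between the lines with 1 library left out are no support. No called member changed direction under any alternative run. Each group had 3 libraries. The edgeR p-values rest on a spread estimated from all 18 libraries, taken within replicate number where the block was fitted. Those of the permutation tests come from rearranging the labels of the libraries compared. The lowest count of any member in any library was 65 (MT-TF).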
